A study of Mus musculus with 2 samples.

Results

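The major histocompatibility complex (MHC) genes and the genes that load peptides onto MHC proteins were followed in macrophages grown from mouse bone marrow. The members were the genes whose symbol begins with H2- and that have at least 1 transcript annotated as protein coding, plus B2m, Tap1, Tap2, Tapbp, Tapbpl, Cd74, Ciita and Erap1. This gave 45 of the 55536 annotated genes, of which 26 were class I heavy chains, 5 were class II chains, 7 were class II loading genes with the regulator Ciita counted among them, and 6 were the class I light chain and its loading machinery. The remaining member, H2-Ke6, is a gene of the MHC region known to encode a hydroxysteroid dehydrogenase, and it entered by its symbol alone. All 37 members with an H2- symbol, 40 members in all, lay on chromosome 17.

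The series held a single group of 2 libraries of polyadenylated RNA from C57BL/6J bone marrow-derived macrophages exposed to a bacterial ligand at 100 ng/ml for 30 min. The description names the ligand lipid A, whereas the source and treatment fields name it lipoprotein A, and the labels do not settle which was used. Both libraries were made from 1 µg of starting material and have their own biosample records, derived from the same donor record, and no age or sex was collected. No untreated macrophages were among the samples, so every value below is a level at 30 min and no change with treatment was measured. Replicate 2 held 51904460 counts over annotated genes and replicate 1 held 37784919. The members took 1.19% of these counts in replicate 2 (95% Wilson interval 1.186% to 1.192%) and 0.922% in replicate 1 (0.919% to 0.925%), intervals that cover counting error only. A ribosomal RNA gene, CT010467.1, took 5.05% of the counts in replicate 2 and 10.9% in replicate 1. TPM is a level per transcript length, scaled to the same total within each library. A gene with 0 counts could still have up to 3, which is 0.0578 CPM (counts scaled to the library total) in replicate 2 and 0.0794 CPM in replicate 1.

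MHC class I molecules sit on nearly all nucleated cells and show peptides from inside the cell to CD8+ T cells. A heavy chain pairs with β2-microglobulin in the endoplasmic reticulum, where the TAP transporter delivers peptides, tapasin holds the empty molecule for loading and the peptidase ERAP1 trims the peptides. MHC class II molecules are found mainly on professional antigen-presenting cells, macrophages included, where an α and a β chain assemble with the invariant chain and exchange its remnant for an endosomal peptide with the help of H2-DM, before CD4+ T cells see them. Class II transcription depends on the coactivator CIITA, which binds an enhanceosome of RFX, CREB and NF-Y on the promoters.

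The class I heavy chains are close paralogs. The stretch below was chosen as the window with the most differences between H2-D1 and H2-K1, so it understates how alike that pair is. It covers 90 bases of the coding sequence of the leading coding transcript, 5′ to 3′, aligned without gaps and read from the GENCODE M21 transcripts on mm10. Capitals mark bases that differ from H2-D1 at the same position.
H2-D1: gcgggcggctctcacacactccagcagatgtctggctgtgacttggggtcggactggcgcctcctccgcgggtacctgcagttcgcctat
H2-K1: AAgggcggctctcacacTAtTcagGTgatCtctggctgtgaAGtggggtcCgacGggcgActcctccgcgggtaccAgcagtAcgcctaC
H2-Q4: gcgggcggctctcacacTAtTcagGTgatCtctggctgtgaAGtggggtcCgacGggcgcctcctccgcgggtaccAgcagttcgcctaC
H2-Q7: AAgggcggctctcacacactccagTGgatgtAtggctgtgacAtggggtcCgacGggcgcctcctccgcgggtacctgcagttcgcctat
H2-Q6: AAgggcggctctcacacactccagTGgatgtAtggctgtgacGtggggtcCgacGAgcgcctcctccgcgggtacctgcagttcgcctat
H2-T23: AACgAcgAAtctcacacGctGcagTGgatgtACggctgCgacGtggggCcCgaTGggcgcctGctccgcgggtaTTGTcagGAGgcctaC
The window began at base 337 of the coding sequence in H2-D1, at base 328 in H2-K1, H2-Q7 and H2-Q6, at base 412 in H2-Q4 and at base 325 in H2-T23. It differed from H2-D1 at 16 bases in H2-K1, 12 in H2-Q4, 8 in H2-Q7, 9 in H2-Q6 and 27 in H2-T23. Over the aligned bases the coding sequences of H2-K1 and H2-D1 were 91.4% identical, those of H2-Q4 and H2-D1 90.3%, and those of H2-Q6 and H2-Q7 92.4%. The last value covers 644 bases only. The H2-Q7 transcript used, H2-Q7-204, has a coding sequence of 645 bases, against 978 in H2-Q6, so values for H2-Q7 depend on that transcript. With these transcripts the closest pair was H2-T10 and H2-T22, at 96.3%. Reads of such genes were divided by the quantification software, and the level of each heavy chain carries that uncertainty.

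**Figure D1:**
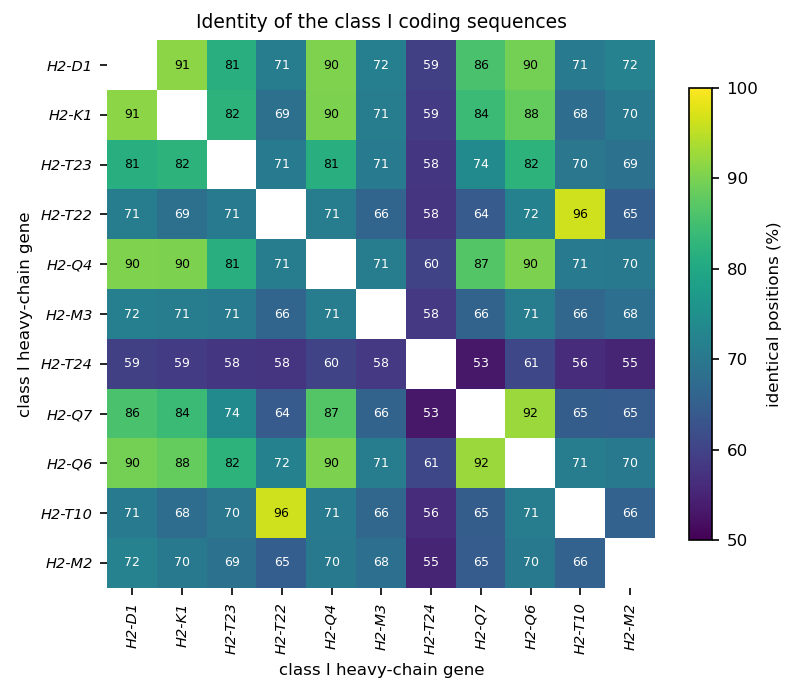
Percent of aligned positions that are identical between the coding sequences of the 11 class I heavy-chain genes with a mean level of at least 1 TPM (rows and columns, ordered by mean TPM, colour scale in percent). Pairs run between 53.3% and 96.3%, and H2-T24 is the row furthest from the others. The lowest value is for H2-T24 and H2-Q7, and the H2-Q7 transcript used has a coding sequence of only 645 bases.

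Promoters of 4 abundant members, 2 of class I and 2 of class II, are shown because the class I and class II genes share short elements known to be bound by NF-Y, RFX, NF-κB and interferon-responsive factors. Each line gives the 250 bases before the transcription start of the RefSeq annotation (GRCm38.p6), 5′ to 3′ on the strand of the gene, with capitals marking a match to 1 of the motifs below. H2-K1 has a pair of annotated starts, and the window shown is that of the downstream one. The windows are chr17:34000334-34000583 on the minus strand for H2-K1, chr2:122147437-122147686 on the plus strand for B2m, chr17:34287824-34288073 on the minus strand for H2-Aa, and chr17:34305617-34305866 on the plus strand for H2-Eb1.
H2-K1: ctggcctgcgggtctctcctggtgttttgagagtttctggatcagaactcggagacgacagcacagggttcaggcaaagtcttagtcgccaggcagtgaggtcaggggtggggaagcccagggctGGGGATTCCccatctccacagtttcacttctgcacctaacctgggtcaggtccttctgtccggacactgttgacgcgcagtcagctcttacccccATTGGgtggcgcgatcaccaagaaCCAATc
B2m: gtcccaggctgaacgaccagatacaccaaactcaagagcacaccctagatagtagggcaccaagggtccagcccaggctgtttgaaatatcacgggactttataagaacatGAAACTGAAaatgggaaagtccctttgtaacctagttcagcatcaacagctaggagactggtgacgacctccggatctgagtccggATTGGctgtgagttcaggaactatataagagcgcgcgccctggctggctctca
H2-Aa: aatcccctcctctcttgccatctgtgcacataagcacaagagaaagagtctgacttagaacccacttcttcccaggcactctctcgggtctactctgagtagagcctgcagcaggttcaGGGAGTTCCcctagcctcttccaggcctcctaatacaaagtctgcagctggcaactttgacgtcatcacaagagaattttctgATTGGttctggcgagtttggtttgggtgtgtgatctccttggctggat
H2-Eb1: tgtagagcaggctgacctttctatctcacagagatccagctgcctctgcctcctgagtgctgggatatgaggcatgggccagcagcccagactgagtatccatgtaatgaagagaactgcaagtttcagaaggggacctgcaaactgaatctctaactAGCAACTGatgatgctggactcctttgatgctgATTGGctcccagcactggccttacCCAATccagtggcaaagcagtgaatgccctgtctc
The motifs searched on both strands were CCAAT, the NF-Y element; AGNAACNG, an RFX-type X box core; GGGNNTTCC, a κB-type motif; and GAAANNGAA, an interferon-stimulated type of motif. Promoter windows of 300 bases, the last 50 of them after the start, were used for 35 of the 45 members. The other members were Cd74, the gene of the invariant chain, H2-Ab1, Ciita, Tap2, Tapbpl, H2-T10, H2-T24, H2-Q1, H2-Bl and H2-Ea-ps. No window was used for them, so they were not searched and entered none of the motif counts. No 2 different motifs overlapped in a member's window, while a pair of matches to the last motif overlapped in that of Erap1. A member counted when any of its windows matched, over 38 windows of members, while the background counts windows. Many members are paralogs, so their matches are not independent. CCAAT was present for 31 of the 35 members, against 37.4% of all 32851 windows. H2-DMa counted through a window at 34125268 to 34125567, while its leading transcript starts at 34135628. The κB-type motif was present for 8 members, H2-K1, H2-D1, H2-Q4, H2-Q6, H2-Q7, H2-M2, H2-Aa and H2-Oa, against 5.82% of all windows. The interferon-stimulated type of motif was present for B2m, Erap1, H2-T23 and H2-T22. These were 4 of the 35 members, a share near the 8.56% of all windows. The X box core was present for 5 of the 35 members, H2-Eb1, H2-Eb2, H2-DMb1, H2-Oa and H2-M3. That share was not above the 17.4% of all windows. An X box core followed within 40 bases by a reversed CCAAT, the order known from class II promoters, was present for H2-Eb1, H2-Eb2 and H2-DMb1, against 0.588% of all windows. A match describes letters and not binding, and the absence of a match says only that these letters are not in the window.

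The level of the members spanned from undetected to among the most abundant messages of the cell. Taking 1 TPM in both libraries as the limit of detection, 25 of the 45 members were detected, beside 45.3% of all protein-coding genes. Of these, 20 members reached 10 TPM in both libraries, 9 reached 100 TPM and 3 reached 1000 TPM. Only 97 genes of the whole annotation reached 1000 TPM in both libraries. The 3 members were B2m, H2-D1 and H2-K1, and they carried 81.9% of the member counts in replicate 2 and 82.2% in replicate 1.

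B2m, the light chain shared by all class I molecules (ENSMUSG00000060802.8, chromosome 2, 122147686 to 122153083 on mm10), stood at 8644 TPM in replicate 2 and 6231 TPM in replicate 1, a mean of 7437 ± 1706 TPM (SD, n = 2) that ranked 15 among all genes. The classical heavy chain H2-D1 (ENSMUSG00000073411.11, chromosome 17, 35262730 to 35267499) stood at 4106 TPM in replicate 2 and 3337 TPM in replicate 1 and ranked 24. The other classical heavy chain, H2-K1 (ENSMUSG00000061232.16, chromosome 17, 33996017 to 34000347), stood at 3362 TPM in replicate 2 and 2843 TPM in replicate 1 and ranked 31. In TPM over all transcripts, H2-D1 and H2-K1 overlapped across libraries, since H2-K1 in replicate 2 lay above H2-D1 in replicate 1. B2m lay above both in each library. On protein-coding transcripts alone these heavy chains did not overlap. H2-D1 then stood at 4076 TPM in replicate 2 and 3325 TPM in replicate 1. H2-K1 then stood at 1491 TPM in replicate 2 and 1241 TPM in replicate 1.

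Together the class I heavy chains summed to 8183 TPM in replicate 2 and 6738 TPM in replicate 1 (7460 ± 1022 TPM, SD, n = 2). H2-D1 and H2-K1 made up 91.3% of that sum in replicate 2 and 91.7% in replicate 1. The light chain matched the sum closely, at 1.06 B2m transcripts per heavy-chain transcript in replicate 2 and 0.925 in replicate 1. This ratio depended on which transcripts were counted, as described with the transcripts below.

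**Figure D2:**
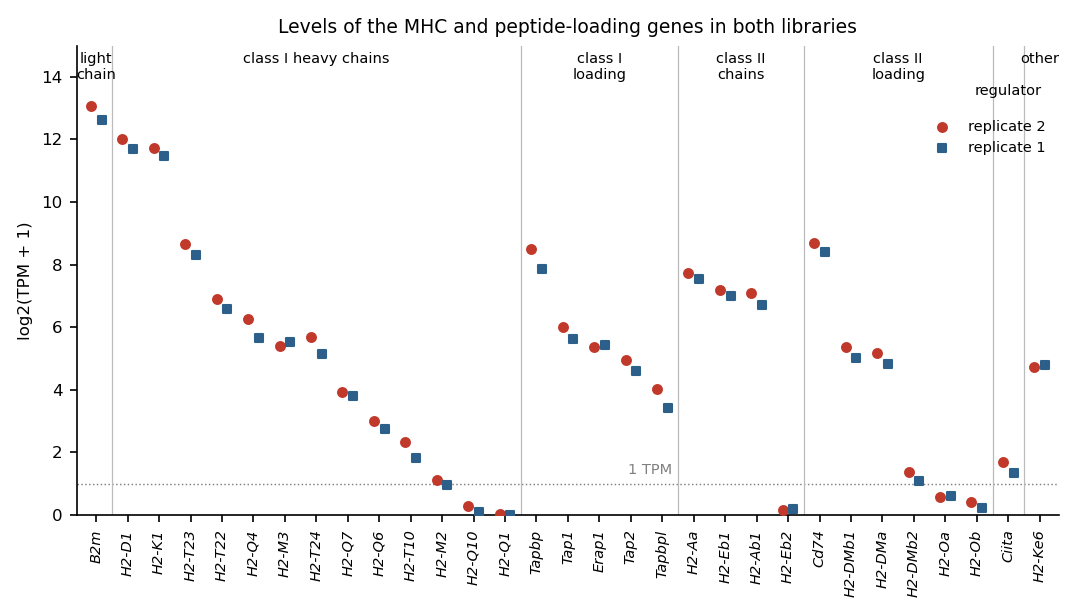
Level of the 31 members with a TPM above 0 in at least 1 library, as log2(TPM + 1), grouped by role and ordered by mean TPM within a role. Circles are replicate 2, squares are replicate 1, and the dotted line marks 1 TPM. B2m, H2-D1 and H2-K1 stand above all others, and the circle lies above the square for most members.

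Among the nonclassical heavy chains the most abundant was H2-T23, the heavy chain of Qa-1, whose peptide complex is a ligand of the CD94/NKG2 receptors of NK cells. It stood at 401.9 TPM in replicate 2 and 312.8 TPM in replicate 1. H2-T22, whose product binds no peptide and is a ligand of some γδ T cells, stood at 119.0 TPM in replicate 2 and 94.4 TPM in replicate 1. Its near-identical partner H2-T10, annotated as a polymorphic pseudogene, was listed at 4.0 TPM in replicate 2 and 2.55 TPM in replicate 1. Of the 31-base words of the leading H2-T22 transcript, 63.8% also occur in transcripts of other genes, and 56.1% occur in H2-T10.

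H2-Q4 stood at 75.7 TPM in replicate 2 and 49.2 TPM in replicate 1, and 58.4% of its 31-base words occur in other genes. H2-Q7 and H2-Q6, the Qa-2 heavy chains, were lower. H2-Q7 stood at 14.1 TPM in replicate 2 and 13.1 TPM in replicate 1, and H2-Q6 at 6.99 TPM in replicate 2 and 5.66 TPM in replicate 1. H2-M3, which presents N-formylated peptides of bacteria and mitochondria, stood at 41.0 TPM in replicate 2 and 44.9 TPM in replicate 1. H2-T24 stood at 50.8 TPM in replicate 2 and 34.1 TPM in replicate 1. The ranges of H2-M3 and H2-T24 overlapped, so their order was not resolved. H2-M2 reached 1.19 TPM in replicate 2 and 0.96 TPM in replicate 1, the only member that crossed 1 TPM in a single library.

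The class I loading machinery was present in full, with all 5 members at 1 TPM or more. Tapbp, which encodes tapasin, led with 359.1 TPM in replicate 2 and 231.6 TPM in replicate 1. The transporter subunits followed, Tap1 with 63.5 TPM in replicate 2 and 48.3 TPM in replicate 1, and Tap2 with 29.9 TPM in replicate 2 and 23.4 TPM in replicate 1. Erap1, the trimming peptidase, stood at 40.4 TPM in replicate 2 and 42.1 TPM in replicate 1. Tapbpl, the tapasin-related peptide editor, was the lowest of the loading genes, at 15.4 TPM in replicate 2 and 9.74 TPM in replicate 1. The transporter is a heterodimer of TAP1 and TAP2, and Tap2 stood below Tap1 in both libraries.

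The class II chains were far less abundant than the class I chains, with class I summing to 16.7 times class II in replicate 2 and 16.3 times in replicate 1. The class II sum was 490.9 TPM in replicate 2 and 414.4 TPM in replicate 1 (452.6 ± 54.1 TPM, SD, n = 2). H2-Aa, the α chain of I-A, stood at 212.1 TPM in replicate 2 and 184.0 TPM in replicate 1. H2-Ab1, the β chain of I-A, stood at 134.7 TPM in replicate 2 and 103.8 TPM in replicate 1. H2-Eb1, the β chain of I-E, stood at 144.0 TPM in replicate 2 and 126.4 TPM in replicate 1. The ranges of H2-Eb1 and H2-Ab1 overlapped between libraries, while H2-Aa lay above both. The α chain of I-E, listed as H2-Ea-ps, had 0 counts in both libraries, and C57BL/6 mice are known not to express this chain. H2-Eb2 was at 0.11 TPM in replicate 2 and 0.13 TPM in replicate 1.

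Cd74, the invariant chain that occupies the groove of new class II molecules, stood at 414.5 TPM in replicate 2 and 335.5 TPM in replicate 1. This was 0.844 Cd74 transcripts per class II chain transcript in replicate 2 and 0.810 in replicate 1. The subunits of H2-DM, which exchanges the remnant of the invariant chain for peptide, were close to each other. H2-DMb1 stood at 40.4 TPM in replicate 2 and 31.1 TPM in replicate 1, and H2-DMa at 34.8 TPM in replicate 2 and 27.1 TPM in replicate 1. The second DM β gene, H2-DMb2, stood at 1.58 TPM in replicate 2 and 1.13 TPM in replicate 1, and 37.6% of the 31-base words of H2-DMb1 occur in it. The subunits of H2-DO, which restrains DM and is known mainly from B cells, were below 1 TPM in both libraries. H2-Oa was at 0.49 TPM in replicate 2 and 0.53 TPM in replicate 1, and H2-Ob at 0.32 TPM in replicate 2 and 0.17 TPM in replicate 1. Ciita, the class II coactivator, was itself low, at 2.24 TPM in replicate 2 and 1.51 TPM in replicate 1. H2-Ke6, the dehydrogenase gene, stood at 25.7 TPM in replicate 2 and 26.6 TPM in replicate 1, and 86.4% of its exon bases lie in a read-through gene on the same strand, Gm20427.

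Many heavy chains were not detected at this depth. The 14 members with 0 counts in both libraries were H2-Ea-ps and 13 heavy chains, namely H2-M1, H2-M5, H2-M9, H2-M11, the 6 H2-M10 genes known from the vomeronasal organ, H2-Q2, H2-T3 and H2-Bl. With H2-Q1, H2-Q10, H2-Oa, H2-Ob and H2-Eb2, 19 members were below 1 TPM in both libraries. H2-Q10, known as a secreted heavy chain of the liver, was at 0.23 TPM in replicate 2 and 0.06 TPM in replicate 1, and H2-Q1 had 1 count in replicate 2 and none in replicate 1. The authors' posterior mean TPM, a second estimate in the same tables, put H2-T3 at 2.47 TPM in replicate 2 and 3.10 TPM in replicate 1, and H2-Bl at 1.07 TPM in replicate 2 and 1.34 TPM in replicate 1, although both had 0 counts.

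Between the libraries the class I and class II genes were mostly higher in replicate 2. An exact two-sided binomial test on rounded expected counts with TMM-scaled library sizes and Benjamini-Hochberg adjustment over 12266 genes covered 29 members. At an adjusted p below 0.05, 20 members were higher in replicate 2, beside 32.2% of all genes tested. Lower in replicate 2 were 2 members, beside 31.3% of all genes tested, and 7 members had no call. The test asks whether the libraries differ beyond counting error, not whether a condition had an effect, and in whole-culture RNA fewer cells of a type cannot be told apart from less RNA per cell. The differences were small: none of the members tested differed by more than 2-fold, beside 8.08% of all genes tested. H2-Q10, with 33 counts in replicate 2 and 6 in replicate 1, did not pass the filter on low counts and had a ratio of 3.46 when the filter was left out. The median log2 ratio of replicate 2 over replicate 1 was 0.27 for the members tested and 0.000713 for all genes tested.

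By role, 8 of 11 heavy chains tested, the light chain, 4 of 5 class I loading genes, 3 of 4 class II chains, 3 of 6 class II loading genes and Ciita were higher in replicate 2. Tapbpl had the highest ratio among the members called, 1.49 (95% exact interval 1.34 to 1.66), with 1129 counts in replicate 2 and 508 in replicate 1 (adjusted p = 1.05e-13, exact binomial test). Ciita followed at 1.47 (1.23 to 1.76), with 412 counts in replicate 2 and 188 in replicate 1 (adjusted p = 2.06e-05, exact binomial test). H2-Q4 had a ratio of 1.47 (1.39 to 1.55) and Tapbp of 1.45 (1.42 to 1.48). The most abundant genes had smaller ratios, 1.26 for B2m (1.25 to 1.27), 1.15 for H2-D1 (1.14 to 1.16) and 1.14 for H2-K1 (1.13 to 1.15). The class II chains H2-Aa, at 1.07 (1.03 to 1.11), and H2-Eb1, at 1.10 (1.05 to 1.16), had the lowest ratios of the members called higher. In the second deposited quantification H2-Aa had a ratio of 1.04 and lost its call (adjusted p = 0.0743, exact binomial test). H2-Q7, called higher at 1.38 (1.24 to 1.53) in scaled counts, had a TPM ratio of 1.08, and on protein-coding transcripts it stood at 8.11 TPM in replicate 2 and 10.55 TPM in replicate 1.

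The 2 members lower in replicate 2 were H2-M3 and Erap1. H2-M3 had a ratio of 0.851 (0.791 to 0.916), with 1669 counts in replicate 2 and 1316 in replicate 1 (adjusted p = 3.37e-05, exact binomial test). Erap1 had a ratio of 0.895 (0.864 to 0.928), with 7131 counts in replicate 2 and 5346 in replicate 1 (adjusted p = 3.98e-09, exact binomial test). Scaled by total counts, without TMM, Erap1 had a ratio of 0.971 and lost its call (adjusted p = 0.147, exact binomial test). H2-M3 then had a ratio of 0.923 and kept its call only at the edge of the threshold (adjusted p = 0.05 after rounding, exact binomial test). H2-Q6 was added at 1.26, so that 21 members were higher and 1 lower in replicate 2, beside 5254 higher and 2487 lower of all genes. That scaling moved the median log2 ratio of all genes to 0.12 and that of the members to 0.38. With library totals taken without the ribosomal RNA gene, 20 members were higher and 2 lower, beside 4186 higher and 3540 lower of all genes.

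**Figure D3:**
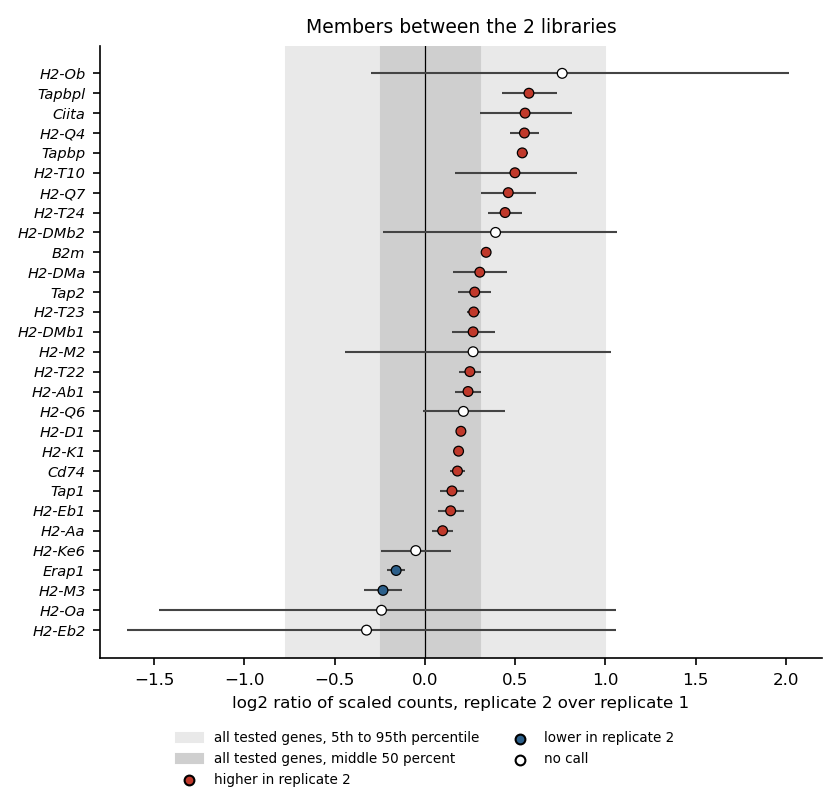
Ratio of TMM-scaled counts of replicate 2 over replicate 1 on a log2 axis for the 29 members tested, with 95% exact intervals as lines. Filled points passed an adjusted p of 0.05 and open points did not, and the grey bands give the middle 50% and the 5th to 95th percentile of all 12266 genes tested. All members lie within the wide band, and most lie to the right of 0.

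The level of several members rested on transcripts that are not annotated as protein coding. Of the 21 members at a mean of 10 TPM or more, 3 had under 50% of their TPM on protein-coding transcripts in both libraries, beside 4.27% of all such protein-coding genes. They were H2-K1, H2-Eb1 and Tap2. For H2-K1, the 457-base transcript H2-K1-215, annotated as retaining an intron (chromosome 17, 33996106 to 33996674), took 50.9% of the TPM in replicate 2 and 54.8% in replicate 1. The full-length coding transcript H2-K1-201 of 1619 bases took 38.3% in replicate 2 and 37.0% in replicate 1. Only 20 bases of H2-K1-215 lie outside the exons of H2-K1-201. In counts, which are not divided by length, H2-K1-215 took 13.1% in replicate 2 and 15.8% in replicate 1, and H2-K1-201 took 73.0% and 72.4% in the same order.

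For H2-Eb1, H2-Eb1-205, annotated as a target of nonsense-mediated decay, took 38.6% of the TPM in replicate 2 and 35.6% in replicate 1. The retained-intron transcript H2-Eb1-204 took 34.4% in replicate 2 and 36.7% in replicate 1. The coding transcript H2-Eb1-203, which encodes 264 codons, took 22.9% in replicate 2 and 19.6% in replicate 1. For Tap2, the retained-intron transcript Tap2-202, with 162 bases outside the exons of the coding transcript, took 71.5% in replicate 2 and 67.0% in replicate 1, and the coding Tap2-201 took 28.5% in replicate 2 and 31.4% in replicate 1. The noncoding transcripts of both genes share most of their bases with the coding one, so the split was an estimate of the software.

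**Figure D4:**
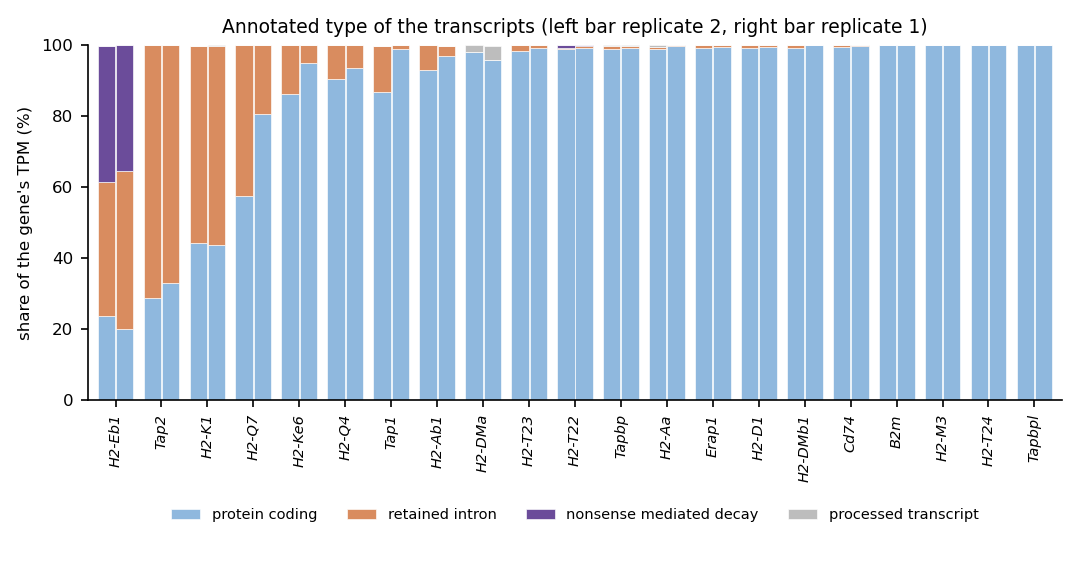
Share of the TPM of each member at a mean of 10 TPM or more that fell on transcripts of each annotated type, in percent, as stacked bars from 0 to 100. In each pair the left bar is replicate 2 and the right bar replicate 1, and members are ordered by their share on protein-coding transcripts. H2-Eb1, Tap2 and H2-K1 stand below 50% in both bars.

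Invariant chain has a pair of coding forms. Cd74-201, with 215 codons, took 80.8% of the Cd74 TPM in replicate 2 and 75.7% in replicate 1. Cd74-202, with 279 codons and an extra exon of 192 bases known to encode the thyroglobulin-type domain of the long form, took 18.7% in replicate 2 and 24.2% in replicate 1. H2-T22 was divided between the coding transcripts H2-T22-202, with 62.5% in replicate 2 and 70.7% in replicate 1, and H2-T22-203, with 34.9% in replicate 2 and 25.2% in replicate 1. H2-T24 was divided between H2-T24-201, with 75.1% in replicate 2 and 78.5% in replicate 1, and the shorter H2-T24-202, with 24.9% in replicate 2 and 21.5% in replicate 1. For H2-Ke6, H2-Ke6-211 took 32.3% in replicate 2 and 53.5% in replicate 1, and H2-Ke6-201 took 37.5% in replicate 2 and 30.1% in replicate 1, so the leading transcript differed between libraries. For H2-Q7 the coding H2-Q7-204 took 38.7% in replicate 2 and 51.4% in replicate 1, and the retained-intron H2-Q7-206 took 38.5% in replicate 2 and 19.2% in replicate 1. H2-Q7-206 held 754.4 counts in replicate 2 and 247.4 in replicate 1, most of the gap between the libraries in the counts of this gene, and H2-Q7-204 held 163.2 in replicate 2 and 145.7 in replicate 1.

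The other members at this level had a single dominant coding transcript. B2m-201, H2-M3-201 and Tapbpl-201 took 100% of their genes in both libraries. H2-Aa-201, H2-DMb1-201 and H2-T23-201 took 98.3% or more in each library, and Erap1-201, H2-Ab1-201, H2-D1-202 and H2-Q4-201 took 90.6% or more. H2-DMa-205 took 88.2% in replicate 2 and 87.6% in replicate 1, and Tapbp-206 took 88.2% in replicate 2 and 85.7% in replicate 1. Tap1-206 took 70.6% in replicate 2 and 86.5% in replicate 1.

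The share on retained-intron transcripts was higher in replicate 2 for 13 of the 16 members at 10 TPM or more that had any such TPM, beside 78.1% of all 4000 such protein-coding genes. It was lower for 3 of the 16, H2-Eb1, H2-K1 and H2-T22, beside 21.9% of all such genes. The members' counts were thus near those of all genes, and the median difference was 0.604 percentage points for the members and 0.724 for all such genes. The widest gaps among the members were in H2-Q7, with 42.4% in replicate 2 and 19.2% in replicate 1, and in Tap1, with 13.1% in replicate 2 and 1.10% in replicate 1.

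Counted on protein-coding transcripts alone, the class I heavy chains summed to 6257 TPM in replicate 2 and 5113 TPM in replicate 1, and B2m stood at 1.38 times that sum in replicate 2 and 1.22 times in replicate 1. The class II chains then summed to 369.3 TPM in replicate 2 and 309.5 TPM in replicate 1, and Cd74 stood at 1.12 times that sum in replicate 2 and 1.08 times in replicate 1. The ratio of class I to class II hardly moved, at 16.9 in replicate 2 and 16.5 in replicate 1.

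A second deposited quantification, made from the reads and an index without the genome alignment, gave another assignment of the reads. Of the 27 members at a mean of 1 TPM or more in either, 2 differed by more than 1.5-fold on the log2(TPM + 1) scale, beside 12.9% of all such genes. After centring on the median of all genes, which was -0.18 in log2, the background was 12.5% and only H2-Q10 was left. H2-Q10 had 533 estimated counts in replicate 2 and 58.9 in replicate 1 in the second quantification, against 33 and 6 expected counts in the first, so its level was not settled between 0.23 and 3.07 TPM in replicate 2. H2-K1 had 2013 TPM in replicate 2 and 1691 TPM in replicate 1 in the second quantification, which is 0.597 times the first. Its counts were 1.04 times those of the first, and H2-K1-215 took 26.4% of its TPM in replicate 2 and 36.9% in replicate 1. H2-D1 stood above H2-K1 in both libraries by both quantifications, at 3395 TPM in replicate 2 and 2574 TPM in replicate 1 in the second.

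**Figure D5:**
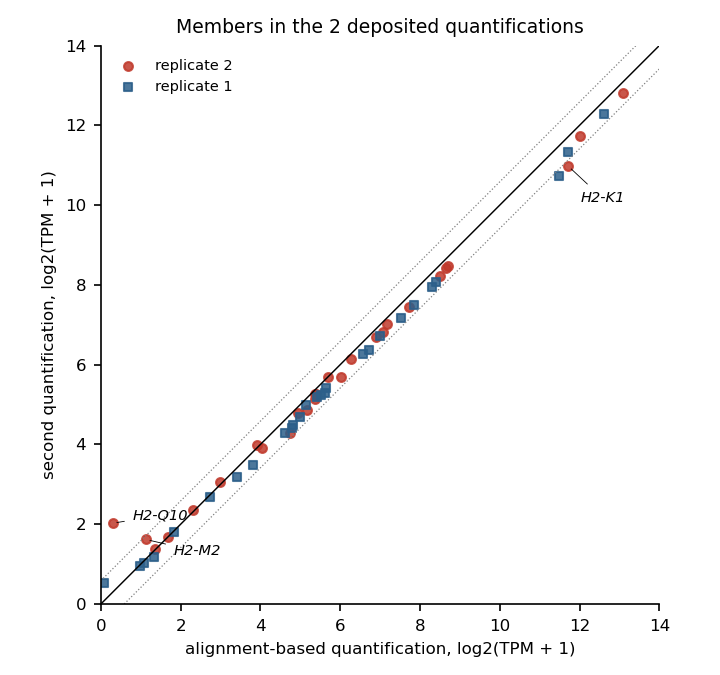
Level of the 27 members at a mean of 1 TPM or more in either quantification, as log2(TPM + 1), with the alignment-based values across and the second quantification up. Circles are replicate 2, squares are replicate 1, the solid line marks equal values and the dotted lines 1.5-fold. H2-Q10 lies above the dotted band and H2-K1 below it.

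Several members share exon bases with a gene on the opposite strand, and the sources used here do not state whether counting used the strand. The overlap was 29.4% of the exon bases of H2-T22 with A930015D03Rik, 27.1% of H2-T10 with BC023719, 24.9% of Tapbp with Gm19412, 19.1% of H2-Q4 with Gm11131, 14.1% of Tap2 with Gm15821, 11.5% of Erap1 with Cast and 10.4% of H2-DMa with Brd2. Tap1 shares 3.87% of its exon bases with Psmb9. B2m, H2-Aa and the leading H2-DMa transcript share no 31-base word with another gene, whereas 27.7% of the words of H2-D1, 23.3% of H2-K1 and 49.3% of H2-T23 occur elsewhere.

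Of 7 regulators of class I genes tested, all at 1 TPM or more, 6 were higher in replicate 2 and none lower, with a median log2 ratio of 0.25, beside 32.2% higher, 31.3% lower and a median of 0.000713 over all genes tested. The same shares of all genes are the background of the counts in the lists that follow. Irf1, an activator of class I and B2m transcription, stood at 463.6 TPM in replicate 2 and 150.4 TPM in replicate 1, a ratio of 2.87. Irf2 stood at 64.3 TPM in both and had no call (adjusted p = 0.561, exact binomial test). Rela, the p65 subunit of NF-κB, stood at 68.1 TPM in replicate 2 and 52.4 TPM in replicate 1, a ratio of 1.06 (adjusted p = 0.0481, exact binomial test). Nlrc5, the class I counterpart of Ciita and singled out after its values were seen, had 3544 counts in replicate 2 and 1515 in replicate 1, a ratio of 1.57.

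Of 9 regulators of class II genes, 3 were higher and 3 lower in replicate 2, shares near those of all genes, with a median log2 ratio of 0.14. Spi1, the macrophage factor PU.1, stood at 294.2 TPM in replicate 2 and 243.9 TPM in replicate 1, a ratio of 1.15. Irf8 stood at 165.8 TPM in replicate 2 and 177.6 TPM in replicate 1, a ratio of 0.880. Nfya, a subunit of NF-Y, stood at 56.6 TPM in replicate 2 and 68.0 TPM in replicate 1, a ratio of 0.797. All 9 were at 1 TPM or more, and Rfx5, Rfxap and Rfxank, the RFX subunits, had between 5.19 and 14.1 TPM.

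Of 12 genes of peptide supply and assembly, 5 were higher and 4 lower in replicate 2, with a median log2 ratio of 0.05. The 4 lower ones, which were not a list of their own, encode proteins of the endoplasmic reticulum. Calr, calreticulin of the loading complex, stood at 833.7 TPM in replicate 2 and 1298 TPM in replicate 1, a ratio of 0.617. Hspa5 stood at 594.9 TPM in replicate 2 and 775.6 TPM in replicate 1, a ratio of 0.764. Pdia3, the disulphide isomerase bound to tapasin, stood at 287.2 TPM in replicate 2 and 360.6 TPM in replicate 1, a ratio of 0.752. The fourth was Canx, at a ratio of 0.839.

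Of 11 genes of class II processing and turnover, 4 were higher and 6 lower in replicate 2, with a median log2 ratio of -0.12. The proteases among them were very abundant. Ctsd stood at 13750 TPM in replicate 2 and 16305 TPM in replicate 1, and Ctsb at 11020 TPM in replicate 2 and 13149 TPM in replicate 1. Ctss, the cathepsin that cuts the invariant chain, stood at 4252 TPM in replicate 2 and 2909 TPM in replicate 1, a ratio of 1.36. Of 9 MHC-like genes outside the rule, 4 were higher and 2 lower of 7 tested, with a median log2 ratio of 0.13. They were led by Fcgrt, the neonatal Fc receptor, at 173.2 TPM in replicate 2 and 215.1 TPM in replicate 1, followed by Hfe at 37.4 TPM in replicate 2 and 31.6 TPM in replicate 1 and Mr1 at 20.6 TPM in replicate 2 and 14.9 TPM in replicate 1. Cd1d2 and Azgp1 had 0 counts in both libraries.

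Class II genes are also expressed by dendritic cells and B cells, so markers of those cells were set beside them. All 8 macrophage markers were at 1 TPM or more and summed to 27510 TPM in replicate 2 and 21671 TPM in replicate 1, led by Lyz2 (22127 TPM in replicate 2 and 15907 TPM in replicate 1), Cd68 (3370 TPM and 3702 TPM in the same order) and Csf1r (882.3 TPM and 764.3 TPM), with 2 higher and 6 lower in replicate 2 and a median log2 ratio of -0.21. The 10 dendritic cell markers summed to 11.0 TPM in replicate 2 and 16.8 TPM in replicate 1. Only Itgax, with 3.88 TPM in replicate 2 and 7.11 TPM in replicate 1, and Batf3, with 4.48 TPM in replicate 2 and 4.47 TPM in replicate 1, reached 1 TPM in both libraries. Ccr7 reached 1.54 TPM and Siglech 1.07 TPM in replicate 1 alone, and of 7 tested 4 were lower and none higher in replicate 2 (median log2 ratio -0.94). Flt3, Zbtb46, Xcr1, Clec9a, Cd209a and Dpp4 were below 1 TPM in both. The 7 B cell markers summed to 20.1 TPM in replicate 2 and 16.0 TPM in replicate 1. Ighm made up most of this, at 18.7 TPM in replicate 2 and 12.0 TPM in replicate 1, while Cd79a, Ms4a1, Pax5, Ebf1 and Fcmr were below 1 TPM. Of the 2 tested, Ighm was higher and Cd79b lower in replicate 2 (median log2 ratio -0.46).

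The 6 T cell markers summed to 83.3 TPM in replicate 2 and 111.8 TPM in replicate 1, nearly all of it Cd4, which was lower in replicate 2 at a ratio of 0.695 and was the one tested (log2 -0.52). Cd3e, Cd3d, Cd8a and Trac were below 1 TPM in both. The 4 monocyte markers, led by Ly6c2 at 8.38 TPM in replicate 2 and 15.7 TPM in replicate 1, Plac8 at 14.95 TPM in replicate 2 and 7.65 TPM in replicate 1, and Ccr2 at 7.07 TPM in replicate 2 and 9.83 TPM in replicate 1, summed to 31.8 TPM in replicate 2 and 34.9 TPM in replicate 1, with 1 higher and 3 lower in replicate 2 (median log2 ratio -0.52). The part of other cells in the class II levels was not tested.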

How the data were processed

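PolyA RNA-seq of 2 macrophage libraries was analysed as deposited. Per the deposited text files the values refer to mm10 and GENCODE M21. Quantification tools and strand use were not stated in these sources. The deposited expected counts, an estimate of reads for each gene or transcript, were not normalized. TPM and a posterior mean TPM were deposited per gene, scaled to the same total in each table. The share of each transcript in its gene was deposited as a percent. Other deposited columns, the credibility bounds of TPM at a level not stated, were not printed. Per the file headers, a further transcript table held a second set of estimated counts and TPM, which were summed per gene here.

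Entries that name no gene (0.0698% of the counts in replicate 2 and 0.0891% in replicate 1) were left out. Expected counts were rounded. Library sizes were scaled by TMM in edgeR 4.0.16 after filterByExpr, with total counts, DESeq2 1.42.0 size factors and totals without the ribosomal RNA gene as alternatives, in R 4.3.3. edgeR and DESeq2 were used for scaling only, since a single group leaves no model to fit. Each gene was tested by a two-sided exact binomial test (SciPy 1.17.1), adjusted by Benjamini-Hochberg over all genes tested, at 0.05. The test was checked on simulated libraries that, apart from planted changes, differed by counting error only. That check does not show how the test behaves with further spread between libraries. The p-values of the test measure only the difference between these 2 libraries. Ratios are replicate 2 over replicate 1 of TMM-scaled counts with 0.5 counts added. A gene with 0 counts is given a limit of 3 counts.

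Coding sequences were taken from GENCODE M21 transcripts and aligned with MAFFT 7.526; they stand in for a planned comparison of proteins. Shared sequence was counted in words of 31 bases on either strand, so an overlapping gene on the opposite strand also counts. Promoters were from RefSeq. No window was used for Cd74, H2-Ab1 and the other members named with the motifs, so their promoters were not searched. Named were all members at a mean of 1 TPM or more, the 3 most abundant genes of each context list, list members below 1 TPM in both libraries, the leading transcript of members at 10 TPM or more and second transcripts at 20% or more in both libraries. Other transcripts and genes named were chosen after their values were seen. Of the genes first listed, 1 regulator and 1 B cell marker are not reported here, and the counts of their lists leave them out. The members and lists were chosen with earlier results of these data known.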

Additional observations from a re-analysis of the deposited data

How the results depend on the processing

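With 2 libraries of 1 group, each value rests on 2 points, and no paired analysis was possible because there is only 1 group. The count of members at 1 TPM or more in both libraries, 25 as reported, ran between 22 and 27 over limits of 0.5 and 5 TPM, the mean of both libraries, the second quantification, the posterior mean, protein-coding transcripts alone and single libraries. The count of members that differ between the libraries, 22 as reported, was 22 or 23 under 3 other scalings, no filter and the second quantification, and 0 when a difference of more than 1.5-fold was also asked for, as were the 20 higher and the 2 lower. The members called changed in part: scaled by total counts Erap1 was lost, leaving 1 lower, and H2-Q6 was added, with no filter H2-Q10 was added, and in the second quantification H2-Aa was lost while H2-M2 (ratio 1.73) and H2-Q10 (5.76) were added. Beyond 2-fold stood 0 members as reported, 2 with no filter and 1 in the second quantification. Between the quantifications, 2 members were beyond 1.5-fold, 1 beyond 2-fold and 1 after centring on the median of all genes, an alternative chosen after seeing the data. Without replicate 1 and without replicate 2 this count was 2 and 1.

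The mean class I sum of 7460 TPM became 5379 TPM in the second quantification and 5685 TPM on protein-coding transcripts, and was 8183 and 6738 TPM in single libraries. The mean class II sum of 452.6 TPM became 371.7 and 339.4 TPM under the same 2 settings, and was 490.9 and 414.4 TPM in single libraries. The mean ratio of B2m to class I, 0.991, became 1.12 and 1.30, and was 1.06 and 0.925 in single libraries. The mean ratio of Cd74 to class II, 0.827, was 1.10 on protein-coding transcripts, and 0.844 and 0.810 in single libraries. The median share of the leading transcript, 87.9%, was 89.2% in the second quantification, and 88.2% and 87.6% in single libraries. The causes were not tested. Of 26 single-member levels, 14 moved lower and 1 higher by more than 1 SD in the second quantification, and 4 moved higher when TPM was rescaled without the ribosomal RNA gene, also chosen after seeing the data. Depth limits H2-DMb2 and H2-M2, which rest on 26 to 63 counts per library.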

Other observations

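The H2- symbols outside the rule, which lack a protein-coding transcript, numbered 8. H2-K2, annotated as a transcribed pseudogene, stood at 30.3 TPM in replicate 2 and 7.42 TPM in replicate 1, with 1353 counts in replicate 2 and 237 in replicate 1, a ratio of 3.83 (adjusted p = 2.25e-105, exact binomial test). H2-Q5, annotated as a polymorphic pseudogene, stood at 11.6 TPM in replicate 2 and 2.43 TPM in replicate 1, with 292 counts in replicate 2 and 50 in replicate 1, a ratio of 3.89 (adjusted p = 7.36e-24, exact binomial test). In the second quantification H2-K2 stood at 27.9 TPM in replicate 2 and 6.49 TPM in replicate 1, and H2-Q5 at 19.0 TPM in replicate 2 and 3.36 TPM in replicate 1. None of the 29 members tested reached such a ratio. The member H2-Q10, which did not pass the filter on low counts, had a ratio of 3.46 without the filter. In the second quantification its ratio was 5.76. H2-T-ps stood at 0.91 TPM in replicate 2 and 0.50 TPM in replicate 1 and had no call. The other 5 had 0 counts in both libraries.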
